A study of Mus musculus with 15 samples.

Results

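The tumour necrosis factor (TNF) receptor superfamily is a group of cell-surface receptors that pass survival, activation and death signals to B cells. It was followed here through 10 genes, picked by name, though with earlier results of these data known: Fas, Cd40, Cd27, Tnfrsf8, Tnfrsf13b, Tnfrsf13c, Tnfrsf1b, Tnfrsf9, Tnfrsf18 and Tnfrsf4. They are 10 of the 54838 genes in the count table, and 18 other receptors of the family were set beside them. All 10 passed the filter on low counts, in part because a gene high in any one group passes it. RNA was sequenced from B cells of the spleens of wild-type (WT) male mice, 3 months old, on day 9 after immunisation with sheep red blood cells, which start germinal centre reactions. There were 15 libraries in 5 groups of 3, lettered A, B and C. The groups titled CD40, CpG and LPS were naive B cells activated in an embryonic stem cell medium for 5 days, with fresh medium and cytokines on day 0 and day 3; the other groups were sorted germinal centre (GC) and naive B cells, for which no activation is named in the titles. The titles stand for an agonist antibody to the receptor CD40 (5 µg/ml), the Toll-like receptor ligand CpG (2 µM) and lipopolysaccharide (25 µg/ml). Mouse IL-4 (80 ng/ml) is named with anti-CD40, and the labels do not settle whether CpG and LPS cultures had it too. No deletion or transgene is named in any group. The design text speaks of 3 x 2 individual mice, but what a letter stands for (an animal, a pool or a day) is not given in the sources used here. The p-values thus rest on library-to-library spread, which may be technical.

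Receptors of this family are bound by trimeric ligands of the TNF superfamily. Most of the 10 recruit TNF receptor-associated factors (TRAFs) and switch on the transcription factor NF-kB, through the canonical or the non-canonical route, while Fas carries a death domain that assembles FADD and caspase-8. In B cells, the BAFF receptor (Tnfrsf13c) keeps mature naive cells alive, CD40 (Cd40) receives T cell help and is needed for germinal centres, and FAS (Fas) removes unwanted GC and activated cells. TACI (Tnfrsf13b) binds BAFF and APRIL, CD27 (Cd27) binds CD70, and CD30 (Tnfrsf8) is known from activated lymphocytes. The type II TNF receptor (Tnfrsf1b) and the receptors encoded by Tnfrsf9, Tnfrsf18 and Tnfrsf4 are best known as co-stimulators of T cells.

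Library totals ran from 25397624 to 36272197 counts. Naive B stood apart, with 11523 genes detected, the fewest of the 15 libraries (the most were 19320), and with up to 298 CPM of erythroid marker transcripts. CPM are counts scaled to a common library size after TMM normalisation (trimmed mean of M values), and all levels below are on this scale unless given per kb of exon. The 6 general B cell markers summed to between 4639 and 5980 CPM in activated libraries, 7932 and 8862 CPM in GC libraries, and 10362 and 13214 CPM in naive libraries. All 6 were called lower with each stimulus than in naive cells (median log2 change -1.27 with CD40, -1.27 with CpG and -1.3 with LPS), and 4 of 6 were lower in GC cells (median -0.69). The 6 GC markers summed to between 2063 and 2323 CPM in GC libraries, against 71.4 to 129 CPM in naive libraries. The markers of the GC sort are not given in the sources used here. FAS protein is often part of such gates, so the Fas level of GC cells may be part of how they were picked.

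Scaled by gene length, Tnfrsf13c had the highest mean level of the 10 genes in every group. It averaged 146 ± 58.7, 155 ± 68.2 and 145 ± 56.8 CPM per kb in CD40, CpG and LPS libraries, 260 ± 18.5 in GC libraries and 180 ± 35 in naive libraries (SD, n = 3 each here and throughout). In all 9 activated libraries the second place went to Tnfrsf8, which took between 20.1% and 23.7% of the summed per-kb level of the 10 genes and the 18 other receptors. In the 3 GC libraries it went to Fas, with between 15.3% and 18.1%. In naive libraries it went to Tnfrsf13b (A and C) or Cd40 (B). In GC libraries the first 4 places (Tnfrsf13c, Fas, Tnfrsf13b, Cd40) did not overlap between neighbours. In activated groups the range of Tnfrsf13c over the letters overlapped that of Tnfrsf8, and Tnfrsf8 overlapped Tnfrsf13b, as did Fas with Cd40. Within each of the 9 activated libraries, however, Tnfrsf13c was above Tnfrsf8 and Tnfrsf8 above Tnfrsf13b. The 10 genes together made up between 83.4% and 95.8% of the family's summed level in every library, as the stacked bars by library show.

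**Figure D1:**
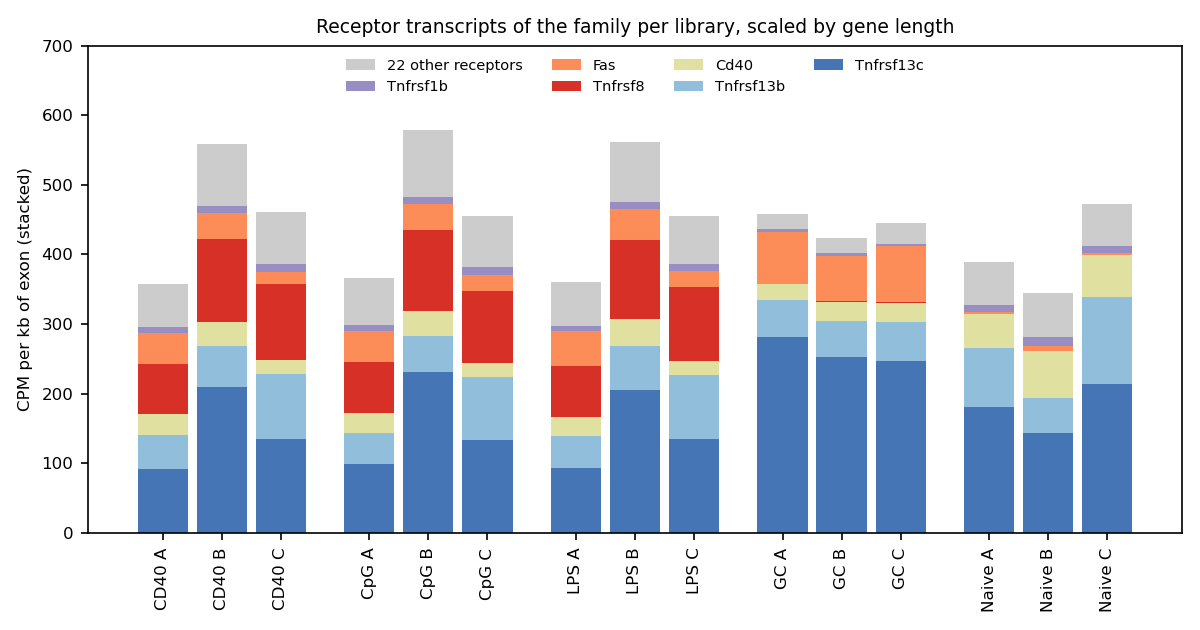
Stacked bars give the level of TNF receptor superfamily genes per library in CPM per kb of exon (linear axis), with 6 genes in colour and the other 22 receptors in grey; Tnfrsf8 (red) fills 20.1% to 23.7% of each activated bar and Fas (orange) 15.3% to 18.1% of each GC bar.

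The first comparison asked how the receptor repertoire of naive B cells differs after 5 days of activation. Of the 10 genes, 3 rose under every titled stimulus (Tnfrsf8, Tnfrsf9 and Fas), 1 fell under every stimulus (Cd40), and 6 were not called. Over all 17144 genes tested, CD40 cells had 34.1% called (19.8% higher, 14.3% lower). For CpG this was 33.6% (19.7% higher, 14% lower) and for LPS 33.7% (19.5% higher, 14.2% lower). A share of 3 in 10 higher and 1 in 10 lower is set against that background, and the 3 comparisons share the same naive libraries. The median log2 change of all tested genes was 0.167, 0.177 and 0.18, so the changes below are to be read against this shift. In bulk RNA, fewer cells of a type and less RNA per cell cannot be told apart.

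CD30, a receptor of activated and some malignant lymphocytes, showed the widest contrast. Tnfrsf8 (ENSMUSG00000028602, chromosome 4, 145267137 to 145315164, minus strand, GRCm38) had 251, 416 and 378 CPM in CD40 libraries A, B and C. It had 257, 401 and 361 CPM in CpG libraries and 254, 390 and 367 CPM in LPS libraries, against no count in any naive library. The groups therefore did not overlap, and within each stimulus A was the lowest library and B the highest. The adjusted p was 4.72e-09 (CD40), 5.49e-09 (CpG) and 4.8e-09 (LPS) by edgeR's quasi-likelihood test.

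The 4-1BB receptor, Tnfrsf9 (ENSMUSG00000028965, chromosome 4, 150914562 to 150946102, plus strand), followed at a far lower level. It had 0.186, 11.5 and 2.86 CPM in CD40 libraries A, B and C, 1.7, 17.6 and 6.5 CPM in CpG libraries, and 0.858, 16.2 and 6.49 CPM in LPS libraries, against 0, 0 and 0.0694 CPM in naive libraries. Every activated library lay above every naive one, but A and B differed widely under each stimulus. From 440 (CD40), 737 (CpG) and 660 (LPS) counts against 2 in naive libraries, the pooled ratios were 233 (95% counting interval 64.4 to 1921.6), 393 (109 to 3242.4) and 343 (95 to 2832.8). The adjusted p was 0.0085, 0.00538 and 0.00567 in the same order (edgeR's quasi-likelihood test, Benjamini-Hochberg over all genes tested, as for every adjusted p below). Without Naive B the CD40 call was lost (adjusted p = 0.0531), while those with CpG (0.0383) and LPS (0.04) held. In a fit of only CD40 and naive libraries the gene did not pass the filter on low counts.

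Fas (ENSMUSG00000024778, chromosome 19, 34290666 to 34327772, plus strand) had 90.6, 74.9 and 34.2 CPM in CD40 libraries A, B and C. It had 90.3, 77 and 45.8 CPM in CpG libraries and 103, 91.9 and 48 CPM in LPS libraries, against 3.46, 14.3 and 5.1 CPM in naive libraries. All activated libraries were higher than all naive ones, C being the lowest under each stimulus and Naive B the highest of its group. The log2 change was 3.13 ± 0.53 with CD40, 3.22 ± 0.53 with CpG and 3.42 ± 0.54 with LPS (SE), with adjusted p of 0.000599, 0.000507 and 0.000345. Without Naive B these changes were 3.97, 4.06 and 4.25.

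Since Fas, Tnfrsf8 and Tnfrsf9 rose together, their promoter windows are shown, taken from RefSeq on GRCm38.p6 and running from 250 bases before to 50 bases after an annotated start. Such windows were matched for 9 of the 10 genes, in 10 windows, and Cd40 was not matched. Both strands were searched for the NF-kB consensus, for TTCNNNNGAA (the spacing known for STAT6, which IL-4 activates) and for TTCNNNGAA (the spacing of other STAT factors). Capitals mark the matches, which may overlap each other, and the sequences run 5′ to 3′ on the gene's strand.
Fas, chr19:34290409-34290708, plus strand: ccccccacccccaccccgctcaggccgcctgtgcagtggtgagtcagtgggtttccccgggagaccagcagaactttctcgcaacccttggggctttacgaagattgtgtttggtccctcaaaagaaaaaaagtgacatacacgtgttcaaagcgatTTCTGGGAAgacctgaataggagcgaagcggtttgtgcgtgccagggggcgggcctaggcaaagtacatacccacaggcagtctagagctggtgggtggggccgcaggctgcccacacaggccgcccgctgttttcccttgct
Tnfrsf8, chr4:145315115-145315414, minus strand: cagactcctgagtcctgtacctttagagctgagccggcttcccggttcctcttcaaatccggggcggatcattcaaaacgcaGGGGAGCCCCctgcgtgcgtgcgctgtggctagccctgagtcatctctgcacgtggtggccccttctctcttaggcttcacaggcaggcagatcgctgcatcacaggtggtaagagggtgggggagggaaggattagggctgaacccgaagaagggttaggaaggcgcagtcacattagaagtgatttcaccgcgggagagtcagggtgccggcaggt
Tnfrsf9, chr4:150927749-150928048, plus strand: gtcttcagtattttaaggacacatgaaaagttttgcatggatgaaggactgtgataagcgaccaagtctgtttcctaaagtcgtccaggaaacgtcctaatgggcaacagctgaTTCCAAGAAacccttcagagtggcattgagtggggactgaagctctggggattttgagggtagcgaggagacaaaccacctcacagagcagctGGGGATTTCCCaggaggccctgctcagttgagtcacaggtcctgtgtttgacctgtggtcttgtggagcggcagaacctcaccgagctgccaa
The Fas window held TTCTGGGAA, a TTCNNNGAA match, 93 bases before the start. The Tnfrsf8 window held an NF-kB match on the opposite strand, shown here as GGGGAGCCCC, 168 bases before the start. The Tnfrsf9 window held overlapping NF-kB matches (GGGGATTTCCC, from 43 bases before the start) and the TTCNNNGAA match TTCCAAGAA at 136 bases, and it is the window shown because the gene's other one held no match. Of all 32851 RefSeq windows of this length, 4.51% held the NF-kB consensus, 6.95% TTCNNNNGAA and 8.3% TTCNNNGAA. Among the 10 windows of the 9 genes, 2 held the NF-kB consensus, 4 TTCNNNGAA and 0 TTCNNNNGAA. The other TTCNNNGAA matches lay in Tnfrsf1b and Tnfrsf18. These matches are letters in a window and were not tested for binding.

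Cd40 (ENSMUSG00000017652, chromosome 2, 165055627 to 165072948, plus strand) fell with all 3 stimuli, and so did the 6 general B cell markers, whose median log2 changes (-1.27, -1.27 and -1.3) were of similar size. Their part in the change of Cd40 was not tested. Cd40 had 103, 116 and 68.1 CPM in CD40 libraries A, B and C, 95, 122 and 69.1 CPM in CpG libraries, and 89.1, 130 and 72.3 CPM in LPS libraries, against 167, 231 and 206 CPM in naive libraries. No activated library reached the lowest naive one. The log2 change was -1.07 ± 0.26, -1.07 ± 0.26 and -1.05 ± 0.26 (SE), with adjusted p of 0.00522, 0.00517 and 0.00585.

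The 6 genes not called were the receptors of BAFF and APRIL (Tnfrsf13c, Tnfrsf13b) and Cd27, Tnfrsf1b, Tnfrsf18 and Tnfrsf4. Tnfrsf13c (ENSMUSG00000068105, chromosome 15, 82221743 to 82224369, minus strand) had 190, 427 and 277 CPM in CD40 libraries, 203, 473 and 274 CPM in CpG libraries, and 191, 421 and 277 CPM in LPS libraries, against 370, 295 and 439 CPM in naive libraries. The groups overlapped, and the log2 changes were between -0.31 and -0.22. Tnfrsf13b (ENSMUSG00000010142, chromosome 11, 61126755 to 61149372, plus strand) had 135, 168 and 266 CPM in CD40 libraries, 126, 148 and 254 CPM in CpG libraries, and 133, 181 and 259 CPM in LPS libraries, against 241, 140 and 353 CPM in naive libraries. These also overlapped, with C the highest library of each group. Tnfrsf1b averaged 39.7 ± 7.61, 39.9 ± 5.96 and 33.3 ± 5.73 CPM in CD40, CpG and LPS libraries, against 42.7 ± 4.7 CPM in naive libraries. Tnfrsf18 averaged 8.87 ± 3.36, 11.1 ± 4.26 and 9.14 ± 2.52 CPM against 13.6 ± 10.2 CPM in naive libraries, a spread set by Naive B (25 CPM, against 5.22 in A and 10.8 in C). Tnfrsf4 averaged 5.81 ± 2.56, 4.95 ± 2.66 and 6.13 ± 3.73 CPM against 5.4 ± 4.72 CPM in naive libraries, where B was at 0. Cd27 was at most 0.867 CPM in any activated library and 1.18 CPM in any naive one. The SEs of these changes, up to 1.2 for Cd27 on the log2 scale, leave room for sizeable shifts in either direction. Several of them changed sign when 1 library was left out.

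**Figure D2:**
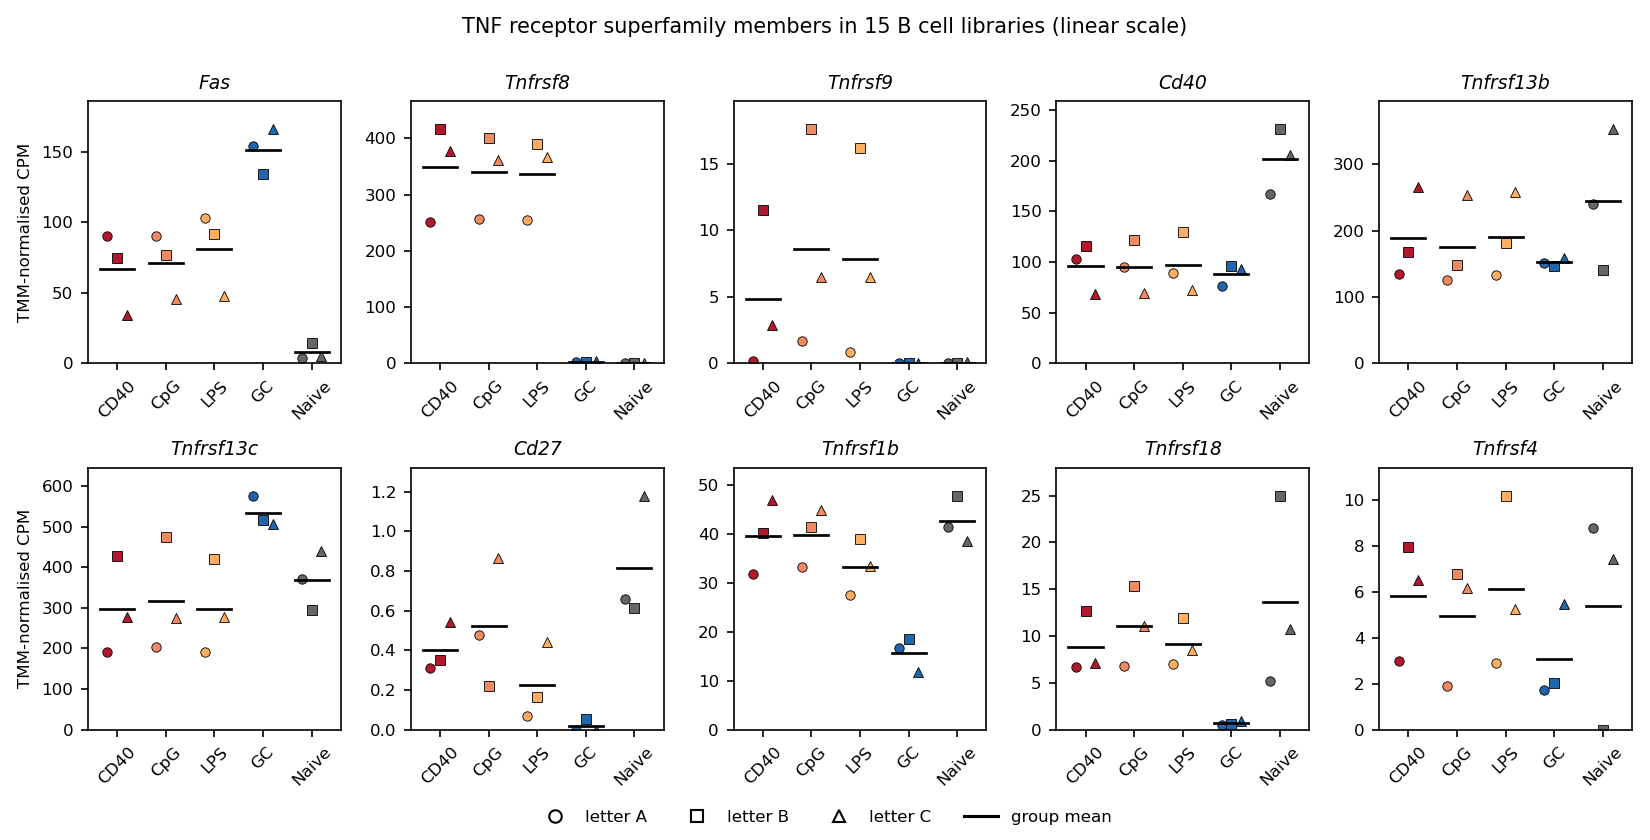
Each panel gives one gene's level in 15 libraries in TMM-normalised CPM (linear axis), with the marker shape for the letter and a bar for the group mean of 3 libraries; Tnfrsf8 sits between 251 and 416 CPM in activated libraries and at 0 in naive ones, with A the lowest and B the highest library under each stimulus.

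Several of the 10 genes are also known from T cells, so T cell transcripts were read beside them. The 14 T cell markers summed to between 24.4 and 76.5 CPM in activated libraries, 7.45 and 9.63 CPM in GC libraries, and 3.88 and 15.6 CPM in naive libraries, and 3 of the 10 tested rose under each stimulus (Ctla4, Cd8a and Cd28). Without Ctla4, the other 13 summed to between 4.77 and 11.5 CPM in activated libraries, 4.46 and 6.14 CPM in GC libraries, and 3.82 and 15.6 CPM in naive libraries. Of the T cell receptor constant genes, Trac was at up to 1.36 CPM in activated libraries (0.73 to 1.22 CPM in LPS libraries), Trbc1 at up to 0.0318 CPM and Trbc2 at up to 0.204 CPM. The CD3 genes Cd3e and Cd3g were at up to 0.621 and 1.16 CPM there. Myeloid markers summed to between 26.8 and 48 CPM in activated libraries, against 12.4 and 31.1 CPM in naive libraries. Among them Cd68 was at 15.2 to 42.4 CPM in activated libraries, against 0 to 7.87 CPM in naive libraries, and Adgre1 at 19.2 to 23.7 CPM in activated A libraries, against 1.26 to 10.1 CPM in naive libraries, neither being called (Adgre1 was at 2.81 to 4.46 CPM in activated B and C libraries). Lyz2 was called lower with CD40, at 0 to 0.191 CPM against 0.055 to 6.87 CPM in naive libraries. Itgam was at 0.243 to 2.38 CPM in activated libraries, against 0.832 to 5.85 CPM in naive libraries, and was not called. Csf1r, S100a8, S100a9 and Ly6g were at 0 in every activated library. NK cell markers summed to between 2.48 and 8.82 CPM in activated libraries, against 9.5 and 26.2 CPM in naive libraries. Plasma cell markers summed to between 1243 and 5059 CPM in activated libraries, against 340 and 367 CPM in naive libraries, with 3 of 7 called higher (Xbp1, Slamf7 and Irf4). Their part in the receptor levels was not tested.

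The second comparison set GC cells against naive cells. In GC cells 2 genes rose (Fas and Tnfrsf8), 4 fell (Cd40, Tnfrsf1b, Tnfrsf18 and Cd27), and 4 were not called. Of all genes tested, 34.5% were called, 17.9% higher and 16.5% lower, with a median log2 change of 0.003, against -1.0 over the 10 genes. Plasma cell markers summed to between 1560 and 1985 CPM in GC libraries, against 340 and 367 CPM in naive libraries. Most of the GC sum was Jchain, at 1267 to 1588 CPM, against 6.14 to 27.8 CPM in naive libraries. Of the 7 markers 2 were called higher (Jchain and Slamf7) and 1 lower (Irf4, 29.3 ± 5.37 CPM in GC against 197 ± 20.1 CPM in naive libraries). NK cell markers summed to between 0.218 and 0.892 CPM in GC libraries, against 9.5 and 26.2 CPM in naive libraries, with Prf1 called lower. Myeloid markers summed to between 10.4 and 16.4 CPM in GC libraries, against 12.4 and 31.1 CPM in naive libraries. Itgam and Adgre1 were called lower, while Cd68 went the other way without a call. Cd68 was at 7.78 to 14.2 CPM in GC libraries, against 0 to 7.87 CPM in naive libraries. Of the 6 B cell markers 4 were lower too. Of the 10 T cell markers tested, Ctla4 and Cd28 were called higher, 0 lower and 8 were not called. Their median log2 change was -0.68, and Cd3g, for one, averaged 0.2 CPM in GC against 1.91 CPM in naive libraries. Their part in these changes was not tested. The plot of changes against naive cells puts these beside those of the activated groups.

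**Figure D3:**
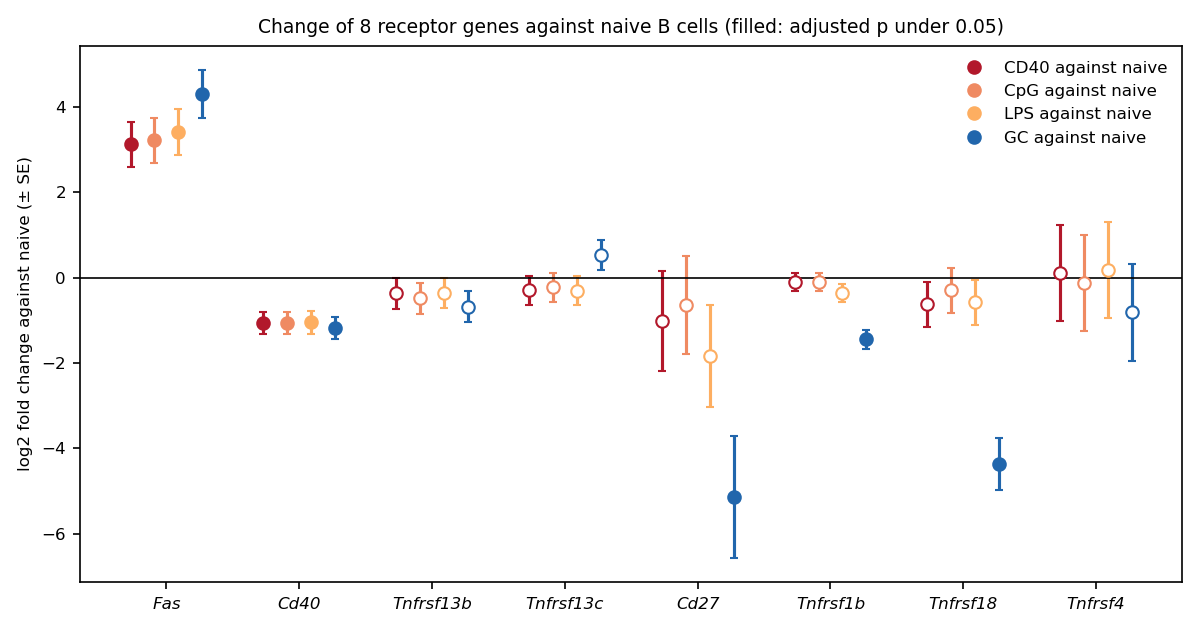
Points give the log2 fold change against naive cells for 8 genes, with bars for the SE of the fit, filled where the adjusted p was under 0.05; Fas is filled above 0 and Cd40 below 0 in all 4 groups, and Tnfrsf1b, Tnfrsf18 and Cd27 are filled only in GC. Tnfrsf8 and Tnfrsf9 are left out because naive libraries held 0 and 2 counts of them.

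Fas had 154, 134 and 166 CPM in GC libraries A, B and C, against 3.46, 14.3 and 5.1 CPM in naive libraries, a log2 change of 4.31 ± 0.56 (adjusted p = 5.93e-05). Without Naive B the change was 5.15. Tnfrsf8 had 2.67, 1.96 and 3.96 CPM in GC libraries, from 276 counts, against 0 in naive libraries, which is at least 88.5-fold higher (adjusted p = 7.99e-07). Both genes separated the groups without overlap. Tnfrsf9 had no count in any GC library and 2 counts in naive libraries, so no fold is given.

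Among the genes that fell, Tnfrsf18 and Cd27 came close to 0. Tnfrsf18 (ENSMUSG00000041954, chromosome 4, 156026164 to 156028895, plus strand), which encodes the receptor GITR, had 0.478, 0.573 and 0.923 CPM in GC libraries, against 5.22, 25 and 10.8 CPM in naive libraries. The log2 change was -4.37 ± 0.61 (adjusted p = 6.6e-05), and -3.6 without Naive B. Of the gene's exon bases, 27.2% are shared with an antisense gene on the other strand (Gm16008), and whether counting used the strand is not given in the sources used here, so the 2 genes may share reads. Cd27 (ENSMUSG00000030336, chromosome 6, 125232622 to 125237010, minus strand), a marker of memory B cells in humans, had 0, 0.0546 and 0 CPM in GC libraries, against 0.66, 0.612 and 1.18 CPM in naive libraries. Its log2 change was -5.14 ± 1.43 (adjusted p = 0.0115), from 2 counts in GC libraries. This call was lost without GC A (adjusted p = 0.0576) and in a fit of the 2 groups alone (0.0817).

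Tnfrsf1b (ENSMUSG00000028599, chromosome 4, 145213463 to 145246870, minus strand) had 16.8, 18.6 and 11.7 CPM in GC libraries, against 41.4, 47.9 and 38.7 CPM in naive libraries. The groups did not overlap, and the log2 change was -1.44 ± 0.22 (adjusted p = 0.000134). Cd40 had 76.4, 96 and 93.3 CPM in GC libraries, against 167, 231 and 206 CPM in naive libraries, a log2 change of -1.18 ± 0.26 (adjusted p = 0.00247). No GC library reached the lowest naive one.

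The receptors of BAFF and APRIL were not called. Tnfrsf13c had 576, 516 and 507 CPM in GC libraries, against 370, 295 and 439 CPM in naive libraries, with a log2 change of 0.53 ± 0.35 (adjusted p = 0.255). Every GC library was above every naive one, and a fit of the 2 groups alone called the gene higher (0.0306). Tnfrsf13b had 152, 147 and 159 CPM in GC libraries, inside the naive range of 140 to 353 CPM, with a log2 change of -0.68 ± 0.36 (adjusted p = 0.16). Without Naive B, the lowest of its group, it was called lower (0.0493). Tnfrsf4 (ENSMUSG00000029075, chromosome 4, 156013843 to 156016612, plus strand), which encodes OX40, had 1.72, 2.02 and 5.47 CPM in GC libraries, against 8.77, 0 and 7.42 CPM in naive libraries, and the groups overlapped.

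The third comparison, activated against GC cells, asked where culture and the germinal centre gave different receptor levels. With CD40 and with CpG 5 genes were higher (Tnfrsf9, Tnfrsf8, Cd27, Tnfrsf18 and Tnfrsf1b), with LPS 4 were (those without Cd27), and none was called lower. Of all genes tested, 28.4% were called for CD40 (15.9% higher, 12.4% lower). For CpG it was 28.9% (16.4% higher, 12.6% lower) and for LPS 28.1% (15.8% higher, 12.2% lower). The count lower was 0 by edgeR and by DESeq2. At an unadjusted p under 0.05, Fas and Tnfrsf13c were lower with CD40 and with CpG and Tnfrsf13c with LPS. The 3 comparisons share the GC libraries.

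Tnfrsf8 was 6.93 ± 0.35, 6.89 ± 0.35 and 6.88 ± 0.35 higher on the log2 scale with CD40, CpG and LPS than in GC libraries (adjusted p = 3.69e-08, 3.77e-08 and 3.82e-08). Tnfrsf9 was at least 161-fold, 272-fold and 238-fold higher, against GC libraries without a count (adjusted p = 0.00511, 0.00334 and 0.00364). In a fit of only CD40 and GC libraries Tnfrsf9 and Cd27 did not pass the filter on low counts. Tnfrsf18, at 6.7 to 15.3 CPM in activated libraries against at most 0.923 CPM in GC libraries, was higher by 3.75 ± 0.6, 4.07 ± 0.61 and 3.79 ± 0.6 (adjusted p = 0.000271, 0.000151 and 0.00025). Tnfrsf1b, at 27.5 to 47 CPM in activated libraries against 11.7 to 18.6 CPM in GC libraries, was higher by 1.34 ± 0.22, 1.34 ± 0.22 and 1.08 ± 0.22 (adjusted p = 0.00034, 0.000317 and 0.00171). None of these 4 genes overlapped between activated and GC libraries. Tnfrsf18 and Tnfrsf1b were thus lower in GC cells than in naive cells and than in activated cells, while activated and naive cells were not called apart. The sum of the NK cell markers ran the same way, at 2.48 to 8.82 CPM in activated and 0.218 to 0.892 CPM in GC libraries. In activated libraries it was mostly Prf1 (2.4 to 7.98 CPM, against 0 to 0.791 CPM in GC libraries). Gzma averaged 0.751 CPM in activated libraries and was at 0 in GC ones. Klrd1 and Klrb1c averaged 0.0631 and 0.0164 CPM in activated against 0.191 and 0.0728 CPM in GC libraries, and Ncr1 and Klra8 were at 0 in both. Prf1 was called higher with each stimulus, as were Cd8a, Ctla4, Adgre1 and the plasma cell markers Irf4 and Xbp1. The plasma cell marker Jchain was not called and did not run one way. It was at 69.3 to 114 CPM in activated A, 17 to 19 CPM in B and 1538 to 2845 CPM in C libraries. In GC libraries it was at 1267 to 1588 CPM. The B cell markers Ms4a1, Pax5 and Cd79a were lower with each stimulus. Their part in these differences was not tested.

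Cd27 had a pooled ratio of 19.2 (counting interval 5.33 to 159) with CD40, 26.6 (7.36 to 220) with CpG and 11.9 (3.29 to 98.2) with LPS, from 35, 48 and 22 counts against 2 (adjusted p = 0.0364, 0.0249 and 0.082). The call was lost in 5 (CD40) and 4 (CpG) of the 6 fits without 1 library and without the filter on low counts (0.0992 with CD40 and 0.071 with CpG). Cd40 differed by 0.11 to 0.13 on the log2 scale (SE 0.26) and was not called. Fas was at 34.2 to 103 CPM in activated libraries, under each of the GC libraries, with log2 changes of -1.18 ± 0.49, -1.09 ± 0.49 and -0.9 ± 0.49 (adjusted p = 0.0916, 0.119 and 0.203). In fits of only the 2 groups compared it was called lower with all 3 stimuli (0.0273, 0.00649 and 0.0297). Tnfrsf13c was at 190 to 473 CPM in activated libraries, also under each GC library, with log2 changes of -0.84, -0.75 and -0.85 (adjusted p = 0.0864, 0.124 and 0.0845). With the letter as a block over 15 libraries it was called lower with all 3 stimuli (0.0273, 0.041 and 0.0267). That block treats activated and GC libraries of the same letter as paired. Activated and uncultured libraries of a letter did not deviate together, however (correlations of -0.0696 to 0.0752). Tnfrsf13c was also called lower without the B library of the stimulus (0.0267, 0.027 and 0.0322), B being its highest activated library.

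Between the titled stimuli, no member was called and none reached an unadjusted p under 0.05. The same held for the whole table, with 0% of 17144 genes called in any pair by edgeR, 92 (CD40 against CpG), 115 (CD40 against LPS) and 71 (CpG against LPS) at an unadjusted p under 0.05, and 1 called in each pair by DESeq2, none of them a member. For Tnfrsf8 the log2 difference was 0.04 (CD40 minus CpG), 0.05 (CD40 minus LPS) and 0.01 (CpG minus LPS), each with an SE of 0.27. For Fas it was -0.09, -0.28 and -0.19 in the same order (SE 0.49). The widest differences were those of scarce genes, -0.83 for Tnfrsf9 (CD40 minus CpG, SE 1.3) and 1.2 for Cd27 (CpG minus LPS, SE 1.18). With the letter as a block among the 9 activated libraries, 27, 44 and 45 of 15727 genes were called and still 0 members. At an unadjusted p under 0.05 there were 954, 1420 and 1071 genes in that edgeR fit. Among them were 1, 3 and 3 members (smallest adjusted p = 0.0914, 0.139 and 0.55). No difference in these genes between the stimuli was thus called in either fit, which does not show that they act alike.

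What set the activated libraries apart was the letter. It accounted for 99.1% of the variance of Tnfrsf8 among the 9 libraries, 98.9% of that of Tnfrsf13c, 96.6% of Tnfrsf13b, 96.2% of Cd40, 91.4% of Fas and 90.3% of Tnfrsf4, on the log2 scale. For Tnfrsf9, Tnfrsf18 and Tnfrsf1b it was 84.7%, 83.3% and 64%, and for Cd27 46.1%. Tests between letters, in a fit of the 9 activated libraries with the stimulus as a term, describe how far these sets stand apart beyond the residual spread. Libraries of 1 letter may share a source, so they are not replicates of a treatment. If a letter stood for something other than a replicate, that could not be seen in the labels.

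Activated A libraries had more Fas and less of 8 other genes than B libraries, where 31.1% of the 15727 genes tested were called, 16.6% higher and 14.5% lower. Tnfrsf9 averaged 0.914 ± 0.757 CPM in A against 15.1 ± 3.23 CPM in B (log2 change -4.22 ± 0.32, adjusted p = 9.46e-11), and Tnfrsf4 2.59 ± 0.602 CPM against 8.32 ± 1.75 CPM (-1.68 ± 0.26, 1.44e-05). Tnfrsf13c averaged 194 ± 7.72 CPM in A against 440 ± 28.3 CPM in B (-1.18 ± 0.06, 1.75e-14), and Tnfrsf8 254 ± 2.93 CPM against 402 ± 12.7 CPM (-0.66 ± 0.05, 4.94e-10). None of these genes overlapped between the letters. Tnfrsf18, Tnfrsf1b, Cd40 and Tnfrsf13b were also lower, with log2 changes between -0.95 and -0.33, and Cd27 was not called. The higher level of Fas was small (94.7 ± 7.44 CPM in A against 81.3 ± 9.26 CPM in B, adjusted p = 0.0383) and was not called by DESeq2 or in 5 of the 6 fits without 1 of these libraries.

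Against C libraries, A libraries had 2 genes higher and 6 lower (23.4% of genes called, 11.9% higher and 11.5% lower). Fas averaged 94.7 ± 7.44 CPM in A against 42.7 ± 7.42 CPM in C (1.16 ± 0.08, adjusted p = 4.79e-11), and Cd40 95.7 ± 6.95 CPM against 69.8 ± 2.18 CPM (0.45 ± 0.08, 4.52e-05). Tnfrsf13b went the other way, with 132 ± 4.82 CPM in A against 260 ± 5.83 CPM in C (-0.99 ± 0.06, 3.84e-12). Tnfrsf9, Tnfrsf4, Tnfrsf8, Tnfrsf13c and Tnfrsf1b were also lower in A.

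Between B and C libraries 5 genes were higher in B (Tnfrsf9, Fas, Cd40, Tnfrsf13c and Tnfrsf18) and 1 lower (Tnfrsf13b), beside 17.3% higher and 17.5% lower of all genes (34.8% called). Cd40 averaged 123 ± 7.07 CPM in B against 69.8 ± 2.18 CPM in C (0.81 ± 0.08, adjusted p = 2.84e-09). Tnfrsf13b averaged 166 ± 17 CPM in B against 260 ± 5.83 CPM in C (-0.66 ± 0.06, 4.86e-09). Tnfrsf13b, which encodes TACI, was thus highest in C and Tnfrsf13c, which encodes the BAFF receptor, highest in B.

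Plasma cell markers moved with the letters as well. Summed, they ran from 2000 to 2132 CPM in activated A libraries (Tnfrsf17 at 0), 1243 to 1329 CPM in B (Tnfrsf17 at 0) and 3462 to 5059 CPM in C. Of the 6 tested, 5 were higher in A than in B, 1 higher and 3 lower in A than in C, and all 6 lower in B than in C. T cell markers summed to between 24.4 and 36 CPM in A, 58.7 and 76.5 CPM in B and 35.1 and 58.8 CPM in C. Most of this was Ctla4, at 19.7 to 29.4 CPM in A, 49.6 to 65 CPM in B and 30 to 51 CPM in C. The other markers were scarce and mixed. Cd8a averaged 1.14 CPM in A and 4.78 CPM in B, but Trac 0.905 CPM in A and 0.349 CPM in B. The part of these marker lists in the receptor levels was not tested. The plot of activated libraries by letter gives the receptor levels of 9 genes. For Tnfrsf9 the A libraries ran from -5.25 to -2.07 around the mean of the activated libraries on the log2 scale, though its letters did not overlap. The C libraries of Tnfrsf18 were also spread (-0.44 to 0.2). Letters overlapped for Tnfrsf1b, whose C libraries (-0.17 to 0.32) spanned the B libraries (0.05 to 0.14). They also did for Fas, between A (0.31 to 0.5) and B (0.04 to 0.33).

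**Figure D4:**
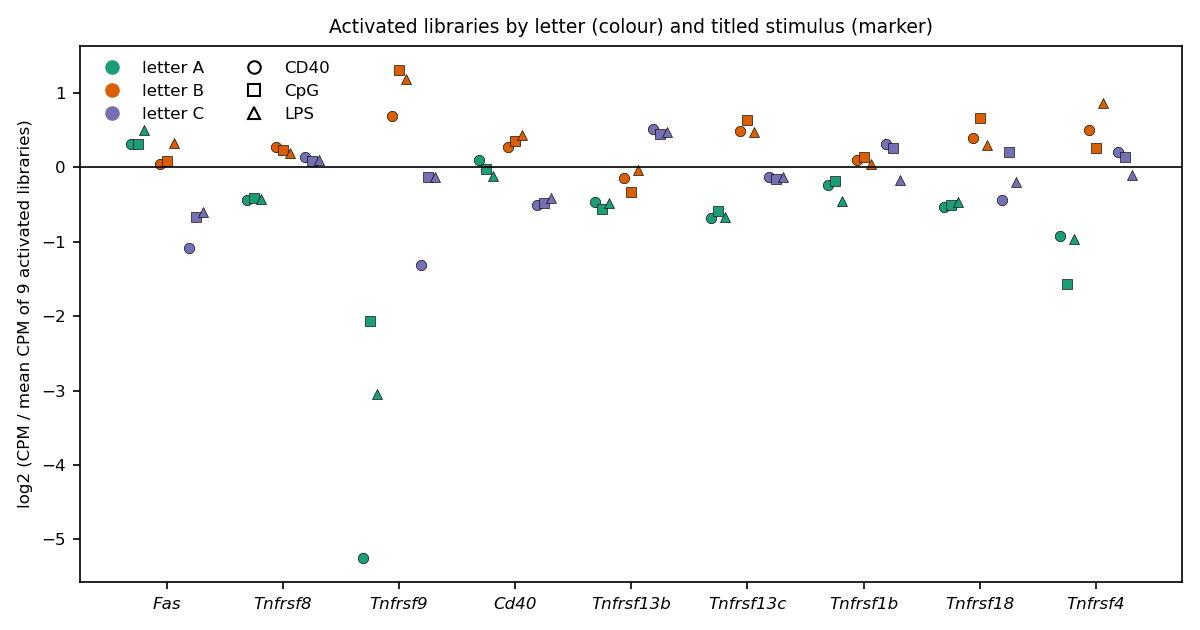
Points give the log2 ratio of each activated library's CPM to the mean of the 9 activated libraries for 9 genes (Cd27 left out for its low counts), with colour for the letter and shape for the titled stimulus; for Tnfrsf8, Tnfrsf13c and Cd40 the 3 stimuli of a letter lie close together and the letters apart.

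The other 18 receptors of the family were counted as a list, of which 15 were tested. In GC against naive cells 0 were higher and 5 lower, beside 17.9% of all genes higher and 16.5% lower. The median log2 change was -0.95, beside 0.003 for all genes. At an unadjusted p under 0.05 by edgeR, 1 was higher and 6 lower. The largest falls named by the fixed rule were those of Tnfrsf19, Relt, Tnfrsf12a and Tnfrsf26, of which Tnfrsf19 was lost in 5 and Tnfrsf12a in 2 of 6 fits without 1 library. Relt averaged 3.55 ± 0.622 CPM in GC against 48.3 ± 5.91 CPM in naive libraries (-3.76 ± 0.24, adjusted p = 2.72e-08). In activated against naive cells 3 rose with CD40, 3 with CpG and 5 with LPS, and 0, 1 and 2 fell, beside 19.5% to 19.8% of all genes higher and 14% to 14.3% lower. At an unadjusted p under 0.05 by edgeR, 5 were higher with each stimulus and 1, 2 and 3 lower. Tnfrsf25, encoding death receptor 3, had 1.18, 19.3 and 11 CPM in CD40 libraries A, B and C, 0.679, 17.4 and 8.76 CPM in CpG libraries and 1.32, 15.9 and 7.71 CPM in LPS libraries, against no count in naive libraries. That is at least 328-fold (CD40), 275-fold (CpG) and 246-fold (LPS) higher, with the same order of letters as Tnfrsf9. Tnfrsf10b, the mouse receptor of TRAIL, averaged 49.5 ± 12.8, 47.1 ± 6.12 and 48.8 ± 8.99 CPM against 5.87 ± 5.82 CPM in naive libraries (log2 change 3.08, 3.01 and 3.06). Naive B held 12.6 CPM, against 2.25 in A and 2.77 in C, and without it the changes were 4.3, 4.23 and 4.28. The lymphotoxin beta receptor gene Ltbr was at most 1.63 CPM in any activated library and at 0 in naive ones. Tnfrsf1a, which encodes the other TNF receptor, and Tnfrsf17, which encodes BCMA, were at most 0.879 and 0.725 CPM in any library.

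Of the 18 ligands of the superfamily, 15 were tested. In activated against naive cells 7 rose with each stimulus, and 3 (CD40), 3 (CpG) and 2 (LPS) fell, with median log2 changes of 1.8, 2.26 and 1.14, beside 19.5% to 19.8% of all genes higher and 14% to 14.3% lower. The ligands of 4 of the 10 receptors were among those that rose. The CD30 ligand gene Tnfsf8 averaged 6.8 ± 4.02, 8.82 ± 5.71 and 10.3 ± 5.9 CPM in CD40, CpG and LPS libraries, against 2 counts in all naive libraries, a pooled ratio of 317 (counting interval 87.8 to 2620.3), 417 (115 to 3444.8) and 486 (135 to 4013.1). Like its receptor, it was lowest in A under each stimulus. The 4-1BB ligand gene Tnfsf9 averaged 10.2 ± 5.06, 10.2 ± 3.6 and 9.47 ± 3.93 CPM against 0.208 ± 0.36 CPM in naive libraries (log2 change 5.62, 5.62 and 5.52; adjusted p = 0.0016, 0.00162 and 0.00178). Among naive libraries only C had counts of Tnfsf9 (18) and of Tnfsf8 (2), so without Naive C no naive count of either is left.

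The OX40 ligand gene Tnfsf4 was at least 114-fold, 95.9-fold and 114-fold higher than in naive libraries, where it had no count, and the CD27 ligand gene Cd70 at least 46.2-fold, 39.1-fold and 48.5-fold. Tnfsf4 was highest in A, at 5.02 to 7.32 CPM there against 1.39 to 2.44 CPM in the other activated libraries. The rest that rose were Tnfsf11, Tnfsf14 and Tnfsf15, at no count in naive libraries. Fasl and Cd40lg, the ligands of Fas and Cd40, were at most 0.382 and 0.541 CPM in any library, both in GC cells. The BAFF gene Tnfsf13b was at most 1.18 CPM and the APRIL gene Tnfsf13 at most 0.333 CPM. The GITR ligand gene Tnfsf18 was at most 0.222 CPM in activated libraries, 3.06 CPM in GC libraries and 2.42 CPM in naive libraries.

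The ligand genes of the type II TNF receptor, Tnf and Lta, were higher in GC than in naive cells. Tnf averaged 29.3 ± 2.49 CPM in GC against 9.74 ± 6.55 CPM in naive libraries (1.59 ± 0.46, adjusted p = 0.0154), and Lta 130 ± 13.9 CPM against 41 ± 14.3 CPM (1.66 ± 0.31, 0.000847). Lta averaged 22.1 ± 5.6 and 20.9 ± 5.39 CPM in CD40 and CpG libraries, below naive libraries (-0.89 and -0.97, adjusted p = 0.0378 and 0.0259), while LPS was not called. These 2 calls were each lost in 4 of 6 fits without 1 library. Tnf was not called in activated against naive cells. Against GC libraries Lta was lower with all 3 stimuli (-2.55, -2.63 and -2.4). Ltb, the lymphotoxin beta gene, singled out after its values were seen, averaged 66.9 ± 57, 66.6 ± 56.8 and 67.5 ± 59 CPM in CD40, CpG and LPS libraries, 407 ± 21.2 CPM in GC libraries and 689 ± 166 CPM in naive libraries. The activated libraries were lower than naive ones (-3.37, -3.37 and -3.35; adjusted p = 0.00739, 0.0074 and 0.00748), and without the A library of the stimulus the log2 changes were -4.26, -4.26 and -4.24. In GC against naive cells 5 ligands rose (Tnfsf14, Cd70, Tnfsf9, Lta and Tnf) and 1 fell (Tnfsf10, encoding TRAIL). The Cd70 call rested on 26 counts, a mean of 0.258 CPM in GC libraries. The lowest GC library was at 0, as the naive ones were. Over all genes 17.9% were called higher there and 16.5% lower.

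**Figure D5:**
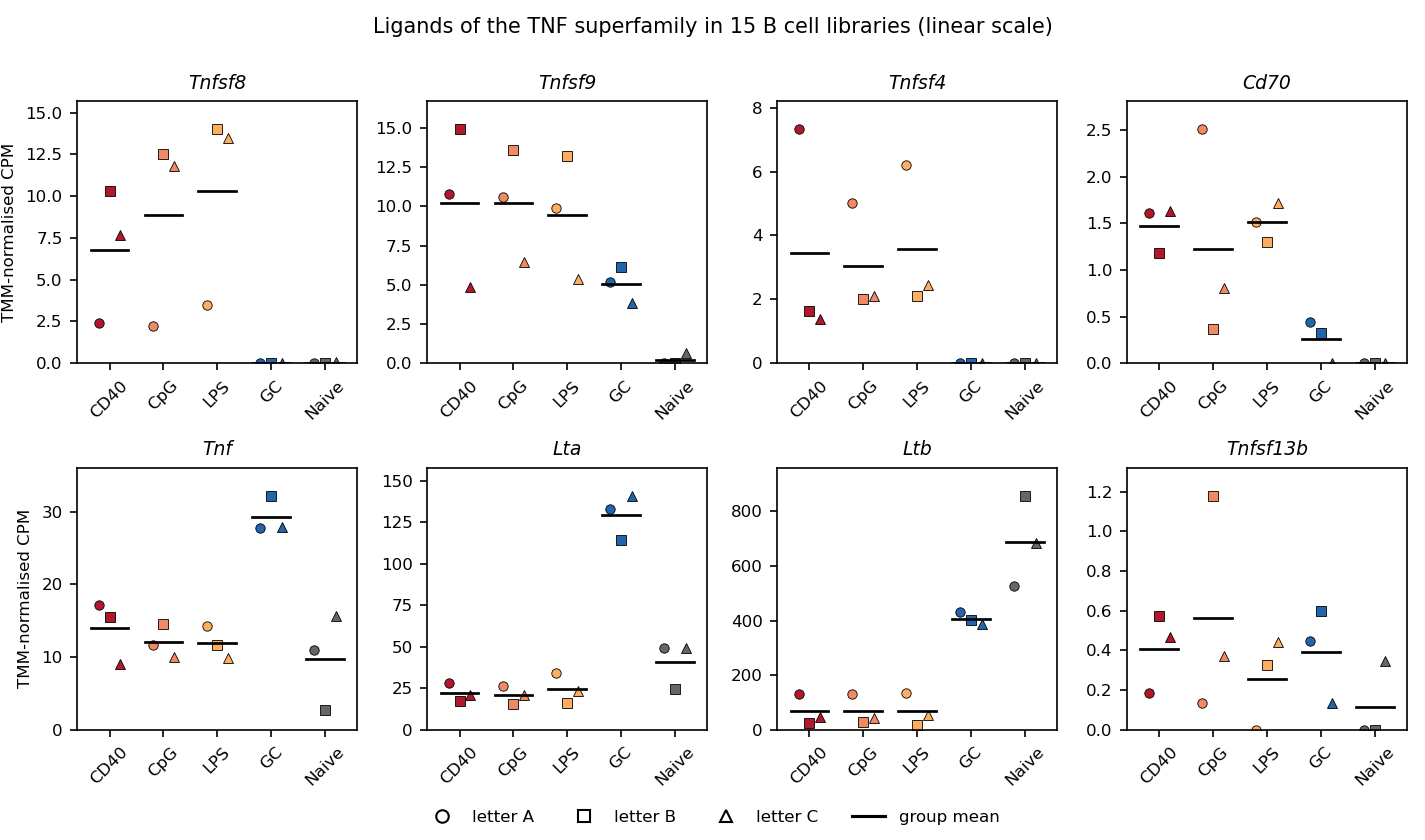
Each panel gives one ligand gene's level in 15 libraries in TMM-normalised CPM (linear axis), with the marker shape for the letter and a bar for the group mean of 3 libraries; Tnfsf8, Tnfsf9, Tnfsf4 and Cd70 are near 0 in naive libraries, Tnf and Lta are highest in GC libraries and Ltb in naive ones.

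The genes through which these receptors signal were counted by role. Of 21 TRAF and ubiquitin adaptors, 0 rose and 9 fell in GC against naive cells (median -0.47), beside 17.9% of all genes higher and 16.5% lower, and 0 were higher and 10 lower at an unadjusted p under 0.05 by edgeR. Among those called, the largest falls were those of Tnfaip3 (which encodes the deubiquitinase A20), Birc3, Map3k14 (the NF-kB-inducing kinase) and Rnf31. In activated cells 2 rose with each stimulus, Traf1 and Birc2, and 8, 7 and 8 fell, beside 19.5% to 19.8% of all genes higher and 14% to 14.3% lower. The Traf1 call was lost in 2 (CD40) and 1 (CpG) of 6 fits without 1 library. Traf5, an adaptor of CD40 and CD27, averaged 16.4 ± 2.39, 18.3 ± 3.22 and 17.9 ± 1.25 CPM in CD40, CpG and LPS libraries, against 150 ± 5.17 CPM in naive libraries (-3.19, -3.03 and -3.07; adjusted p = 9.41e-09, 1.3e-08 and 1.2e-08). It stayed at 130 ± 10.4 CPM in GC libraries.

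Of 14 NF-kB subunits and inhibitors, 0 rose and 11 fell in GC cells, with a median log2 change of -1.25 beside 0.003 for all genes, where 16.5% of genes were called lower. At an unadjusted p under 0.05 all 14 were lower by edgeR. The largest falls among those called were of Nfkbid, Bcl3, Nfkbia and Nfkb2, and the call of Nfkbia was lost without GC A (adjusted p = 0.0546). In activated cells 1 rose with each stimulus (Nfkb1, which averaged 827 ± 122, 836 ± 174 and 827 ± 130 CPM against 331 ± 30.8 CPM), and 6, 5 and 6 fell. Over all genes 19.5% to 19.8% were called higher and 14% to 14.3% lower with the stimuli. Against GC cells 5, 6 and 6 were higher and 0 lower, beside 15.8% to 16.4% of all genes higher and 12.2% to 12.6% lower. At an unadjusted p under 0.05 by edgeR 6 were higher and 0 lower with each stimulus.

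Of 12 genes of the complex that forms on death receptors, 4 rose and 2 fell in GC cells, and 3 rose and 1 fell with each stimulus. Over all genes 34.5% were called in GC cells and 33.6% to 34.1% with the stimuli, and nothing particular to these genes is read from their counts. Mlkl, the executor of necroptosis, averaged 49.9 ± 4.9, 50.8 ± 4.05 and 52.3 ± 6.68 CPM in activated libraries, 0.106 ± 0.184 CPM in GC libraries and 0.479 ± 0.43 CPM in naive libraries (6.68, 6.71 and 6.75 against naive; adjusted p = 8.54e-05, 8.7e-05 and 8.04e-05). Without Naive C these changes were 7.29, 7.33 and 7.37. Cflar, which encodes the caspase-8 inhibitor c-FLIP, averaged 44.1 ± 4.73 CPM in GC against 104 ± 30.8 CPM in naive libraries (-1.23 ± 0.24, adjusted p = 0.00109). It was higher in activated than in GC libraries by 1.66, 1.71 and 1.72 on the log2 scale.

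Genes with the most similar pattern over the 15 libraries were named for each member by the smallest root mean square difference between centred log2 CPM profiles. For Cd40 these were E4f1 (0.18), Ypel3 (0.19) and Relb (0.2), for Tnfrsf1b Slc29a3 (0.17), Bcas3 and Ano10 (0.21 each), and for Tnfrsf13c Ntan1 (0.25), Arhgap25 (0.27) and Blnk (0.29). For Tnfrsf9 they were Syde2 (0.88), Tnfrsf25 (0.89) and Adam33 (0.91), and for Tnfrsf8 Il1r2 (1.01), Gpr15 (1.06) and H2-M5 (1.16). For Fas they were Hmgn3 (0.5), Cks2 (0.52) and Rmi2 (0.54), for Tnfrsf13b Slc25a53 (0.23), Rsrp1 (0.25) and Parp14 (0.26), and for Tnfrsf18 Pik3ip1 (0.36), Stoml1 (0.41) and Slc17a9 (0.44). For Tnfrsf4 they were Gm37760 (0.5), Amt (0.56) and Zfp719 (0.63), and for Cd27 Irgm1 (0.51), Ddx58 (0.56) and Tpst2 (0.58). The 15 libraries share their group structure, so this is a description of likeness only.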

How the data were processed

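RNA-seq gene counts of 15 libraries were analysed as the authors deposited them: raw read counts per Ensembl gene, made with STAR 2.7.10a and featureCounts 2.0.6 on mm10/GRCm38 per the submitters' processing notes, which also list DESeq2. Libraries were poly(A)-selected and made with a strand-keeping kit per the labels. Strand setting and handling of multimapping reads are not given in the sources used here. Of 54838 gene IDs, 54809 were named from the GENCODE annotation of GRCm38. Counts were scaled by TMM and tested with edgeR 4.0.16 (quasi-likelihood, robust, R 4.3.3) after filterByExpr, in 1 fit of all 15 libraries (17144 genes) and, between letters, 1 fit of the 9 activated libraries with the stimulus as a term (15727 genes). Calls used a Benjamini-Hochberg adjusted p under 0.05. Ratios against 3 or fewer counts carry a 95% exact Poisson interval, and bounds use 3 counts over the group; both cover counting error only. Levels per kb used the union of exons. Alternatives were other size factors, no filter, DESeq2 1.42.0, only the groups compared, the letter as a block and leaving out each library; doing so for genes outside the 10 was chosen after seeing the data.

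Same-letter activated libraries deviated together (correlations of 0.362 to 0.495), so the letter pairs these; activated with GC or naive libraries (-0.0696 to 0.0752) and GC with naive libraries (-0.0482 to -0.00357) were not paired. Named genes were all 10 members, the main ligands and 3 receptors whatever their values, up to 4 called genes with the largest change per list and comparison, and the 3 nearest patterns per member; others are said to be chosen after their values were seen. The members and lists were chosen with earlier results of these data known. Only the GC against naive test was checked on simulated data, with the same spread for every gene and no letter effect. The stimulus and letter tests were not checked this way. A result on 1 gene of the lists is not reported here.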

Additional observations from a re-analysis of the deposited data

How the results depend on the processing

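Of 69 member fold changes, 39 kept their direction and their side of the threshold under every alternative tried, and 21 of 26 counts of members stayed within 1.5 times. With only the groups compared in the fit, the members higher in CD40 than in GC libraries were 3 (Tnfrsf1b, Tnfrsf8 and Tnfrsf18, with Tnfrsf9 and Cd27 not tested there because they did not pass the filter on low counts), and those lower than in GC libraries were 2 (CD40), 1 (CpG) and 2 (LPS); with the letter as a replicate block over 15 libraries, those lower were 2, 1 and 1. Without 1 library, those lower than in GC libraries ranged from 0 to 1 with each stimulus. Members higher in activated A than in B were 0 with DESeq2 and 0 to 1 without 1 library.

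The fold changes that reversed were not called. Without 1 library, log2 changes against naive libraries ranged from -0.64 to 0.02 (CD40) and -0.64 to 0.04 (LPS) for Tnfrsf13b, -0.61 to 0.01 (CD40) and -0.56 to 0.10 (CpG) for Tnfrsf13c, -0.18 to 0.09 (CD40) and -0.12 to 0.09 (CpG) for Tnfrsf1b, -1.0 to 0.15, -0.67 to 0.48 and -0.95 to 0.20 (CD40, CpG, LPS) for Tnfrsf18, and -0.48 to 0.67, -0.71 to 0.45 and -0.40 to 0.75 for Tnfrsf4. Against GC libraries they ranged from -0.10 to 0.27, -0.15 to 0.27 and -0.18 to 0.27 for Cd40, and -0.04 to 0.46 (CD40) and -0.19 to 0.37 (CpG) for Tnfrsf13b. With the replicate block, Tnfrsf4 against naive libraries was -0.12 (CD40) and -0.04 (LPS). The cause was not tested. Tnfrsf9, Cd27 and Tnfrsf4 rest on few counts, which limits their precision.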

Other observations

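Low counts were mostly even: of 49301 gene values between 1 and 10 counts, 78.3% were even numbers. Whether both reads of a pair were counted is not given in the sources used here, and its part in the counting intervals of scarce genes such as Cd27 and Tnfrsf9, and in every lower bound that rests on 3 counts, was not tested.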
